A study of Mus musculus with 130 samples.

Results

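The nuclear genes of oxidative phosphorylation encode most subunits of the respiratory complexes I to IV and of the ATP synthase, complex V. Members were taken by gene name from the table of counts, as the Nduf, Sdh, Uqcr, Cox5 to Cox8 and Atp5 genes that name a subunit. Of its 52550 genes, 79 matched, and the 74 with a mean of at least 1 CPM, a count scaled to library size, over the 25 libraries were kept. They were 36 of 36 genes named for complex I, 4 of 4 for complex II, 8 of 8 for complex III, 10 of 15 for complex IV and 16 of 16 for complex V. The 5 left out were Cox6a2, Cox7a1, Cox7b2, Cox8b and Cox8c. Just inside the limit lay Ndufs5 with a mean of 1.35 CPM, and just outside it Cox7a1 with 0.72 CPM. Ndufa4 stands with complex I by its symbol, although its protein is now known as part of complex IV.

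The embryos were FVB/NJ mice with the FUCCI reporter of the cell cycle, in which cells fluoresce red before S phase and green from S phase to mitosis. Cells were minced free and flow sorted into 4 gates that the labels call G0, G1, G1-S and S-G2-M, and an unsorted library was made beside them. There were 5 preparations: WT1 and WT2 at E10.5, WT3 at E11.5, and 5 and 8 at E13.5, each giving 1 library per gate and 1 unsorted library. All were untreated and of the same strain, the labels name no sex, and they leave unsaid how many embryos went into each preparation. The p-values below therefore measure the spread between the libraries of these preparations. The main tests have no term for preparation and treat libraries of the same preparation as independent, although these were correlated. Levels are RNA per library in whole-embryo mixtures, so fewer cells of a type and less of a transcript per cell cannot be told apart.

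Complexes I and II pass electrons from NADH and from succinate to ubiquinone, complex III passes them to cytochrome c, and complex IV passes them to oxygen. Complexes I, III and IV pump protons out of the matrix as they do so, and the ATP synthase lets them return through a rotating ring to make ATP. Complexes I, III, IV and V also hold subunits that mitochondrial DNA encodes, so both genomes have to be expressed for the complexes to form, and complex II is nuclear in all its subunits. Factors such as NRF1 and GABPA are known to bind the promoters of many of the nuclear genes.

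The 25 libraries held 14.7 to 58.5 M counts each, with a median of 22.9 M. Lanes of a library differed by little more than counting noise, with a dispersion of 1.09 to 1.23 times that of Poisson counts, against 5.88 to 118 between preparations, and were summed. The gates carried their marks: the summed level of 18 G2 and M phase genes was 7260 to 9180 CPM in S-G2-M and 98.2 to 241 CPM in G0. Counts from mitochondrial genes made up 1.66 to 3.42% of the libraries of preparations 5 and 8, against 0.372 to 0.701% in WT1, WT2 and WT3. Embryonic day and preparation series cannot be told apart in these libraries.

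Per kb of exon, the most abundant members were Atp5a1 and Atp5b, followed by small subunits of complex IV. The length takes in all annotated exons of a gene, so exons that the cells leave out lower the level per kb. It was 6.443 kb for Atp5l and 5.628 kb for Ndufb2, both among the lowest per kb. Mean levels over the 25 libraries were 287 CPM per kb for Atp5a1 and 247 CPM per kb for Atp5b, the α and β subunits of the ATP synthase head. Next came Cox6b1 with 147, Cox8a with 121 and Cox6a1 with 99.1 CPM per kb, all small nuclear subunits of cytochrome c oxidase. The γ subunit gene Atp5c1 had 88.4 CPM per kb and the complex III hinge protein gene Uqcrh 86.7 CPM per kb. By complex, the median level was 24.8 CPM per kb in complex I, 43.7 in complex II, 48.4 in complex III, 58.9 in complex IV and 40.5 in complex V. The range inside a complex was wider than the differences between these medians, from 1.56 (Ndufs5) to 72.5 CPM per kb in complex I and from 1.63 (Atp5s) to 287 CPM per kb in complex V. Some of the lowest levels belong to genes whose reads other loci share: 21.7% of the 50-base stretches of Ndufs5 and 38.3% of those of Atp5g2 also occur in other annotated genes, and how such reads were counted is not given in the sources used here.

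Where a subunit has more than 1 gene, the embryo libraries held mostly 1 of them. The c ring, the proton-carrying rotor of the ATP synthase, has several genes. Atp5g3 gave 72.7 to 85.8% of their summed level per kb in each library, Atp5g1 9.28 to 16.9% and Atp5g2 2.14 to 14%. These shares depend on the annotated lengths, 4.912 kb for Atp5g1 and 2.181 kb for Atp5g3. Before division by length the means were 31.9 CPM for Atp5g1 and 86.1 CPM for Atp5g3. The heart and muscle forms of complex IV stayed low in every library, at up to 1.01 CPM for Cox6a2, up to 1.65 CPM for Cox7a1 and up to 0.748 CPM for Cox8b. Cox6b2, known as a testis form, had 0.883 to 8.55 CPM.

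Nuclear genes of oxidative phosphorylation were higher in S-G2-M than in G0 cells as a group, by a modest amount and in every preparation. Summed over the 74 members, the level was 6580, 7660, 7790, 4960 and 5160 CPM in the S-G2-M libraries of WT1, WT2, WT3, 5 and 8, against 4660, 4960, 5850, 3640 and 3630 CPM in their G0 libraries. The mean was 6430 ± 1340 CPM in S-G2-M and 4550 ± 941 CPM in G0 (SD, n = 5 each). The gates overlapped across days, but in each preparation the S-G2-M library was the higher. By edgeR's quasi-likelihood test with gate and day as terms, 47 members rose and 1 fell at a Benjamini-Hochberg adjusted p under 0.05, where 27.5% of the 23506 genes tested rose and 26.6% fell. The median log2 change of the 74 members was 0.48, with a range of -0.45 to 1.16, and that of all genes tested was -0.01. Within the preparations the median ranged from 0.38 to 0.56, with 64 to 72 of 74 members higher, and that of all genes from -0.05 to 0.08. The same direction in all 5 was seen for 61 members. The share of all genes with 1 direction in all 5 is not given here, so the 61 cannot be set against it. With library totals or upper-quartile factors in place of TMM factors, the median of all genes moved to -0.12 or -0.15 and that of the members to 0.37 or 0.34. With WT1, WT2 and WT3 alone 31 members rose and none fell, and with 5 and 8 alone 54 rose and 2 fell. Here and below, shares of all genes called are given for the main fit alone. Counts under other settings therefore tell how far the calls depend on the setting, and cannot be compared with all genes.

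**Figure D1:**
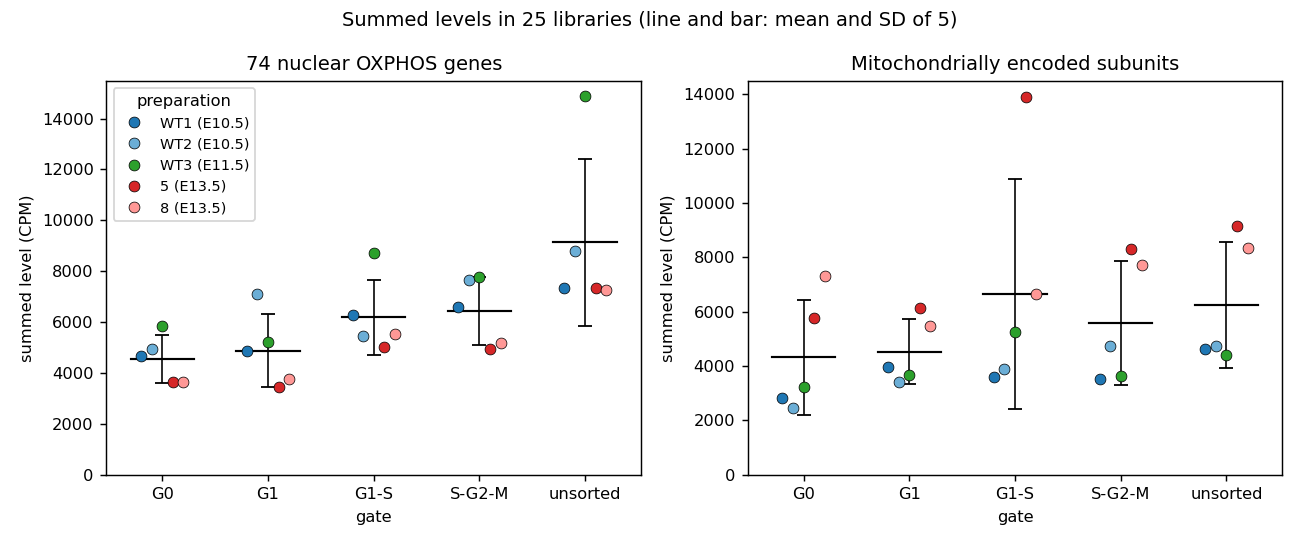
Summed level in CPM of the 74 nuclear genes (left) and of the subunits that mitochondrial DNA encodes (right), by gate. Each point is a library of 1 preparation, the line is the mean of the 5 and the bar its SD. The nuclear sum averaged 6430 CPM in S-G2-M and 4550 CPM in G0, and for this sum the unsorted libraries were the highest of each preparation. The mitochondrial sum was highest in a G1-S library, at 13900 CPM, and reached 9170 CPM in the unsorted libraries.

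Markers of some cell types moved with this comparison. The 14 neuron markers all fell, and their summed level was 240 to 602 CPM in S-G2-M and 5970 to 10200 CPM in G0. Of the 14 heart muscle markers 11 fell, with sums of 28.2 to 113 CPM in S-G2-M and 116 to 813 CPM in G0. Sums of other lists overlapped between the gates. Hepatocyte markers had 27.5 to 43.8 CPM in S-G2-M and 17 to 67.1 CPM in G0. Macrophage markers had 17.6 to 31.7 CPM and 16.6 to 26.5 CPM, and red blood cell markers 227 to 556 CPM and 231 to 741 CPM. Skeletal muscle markers had 78.5 to 383 CPM in S-G2-M and 377 to 3130 CPM in G0. No marker of these lists was at 0 in every library. Their part in the difference between the gates was not tested.

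In complex I, which oxidises NADH, 18 of 36 members rose and 1 fell in S-G2-M cells against G0 cells, with a median log2 change of 0.34. Among the nuclear core subunits that carry the flavin and the iron-sulphur clusters or hold the ubiquinone site, Ndufs7, at the ubiquinone site, rose by 0.74 ± 0.14 log2 units (SE; adjusted p = 7.38e-05), Ndufv2 by 0.53, Ndufs8 by 0.49, Ndufv1, which binds NADH, by 0.44, Ndufs3 by 0.37 and Ndufs1 by 0.30. The largest change in complex I was that of Ndufa12 (ENSMUSG00000020022.16; GRCm38 chromosome 10, 94198720 to 94221443, plus strand), an accessory subunit that takes the place of the assembly factor Ndufaf2. It had 35.4, 44.0, 41.1, 21.5 and 23.3 CPM in S-G2-M, against 12.4, 14.5, 19.2, 12.5 and 13.7 CPM in G0, in the order WT1, WT2, WT3, 5 and 8. The ranges did not overlap, and the log2 change was 1.14 ± 0.20 (SE; adjusted p = 3.44e-05). Of the 50-base stretches of Ndufa12, 17.7% also occur in a pseudogene.

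Ndufs6 (ENSMUSG00000021606.8; chromosome 13, 73319838 to 73328542, minus strand), an accessory subunit joined late to the NADH-oxidising arm, had 28.3, 32.4, 36.7, 20.1 and 25.4 CPM in S-G2-M, against 15.7, 16.9, 18, 14.6 and 13 CPM in G0. All 5 S-G2-M values lay above all 5 G0 values, and the log2 change was 0.85 ± 0.17 (SE; adjusted p = 0.000198). Ndufb2 (ENSMUSG00000002416.13; chromosome 6, 39592574 to 39603382, plus strand), an accessory subunit of the membrane arm, was the 1 member that fell. It had 11.6, 10.8, 14.2, 6.37 and 7.90 CPM in S-G2-M, against 15.1, 14.9, 16.5, 11.3 and 9.41 CPM in G0. The value was lower in S-G2-M in each preparation, although the ranges overlapped, and the log2 change was -0.43 ± 0.15 (SE; adjusted p = 0.016). The call was lost under 3 of the other settings, with an adjusted p of up to 0.196. Of its exon bases 5.4% lie opposite the genes Braf and Gm16272 and 2.6% overlap Gm42420 on the same strand, and whether the counts used strand is not given in the sources used here.

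All 4 genes of complex II, succinate dehydrogenase, rose in S-G2-M cells against G0 cells, with a median log2 change of 0.64. Sdhd (ENSMUSG00000000171.5; chromosome 9, 50596357 to 50603812, minus strand), a membrane anchor, had 91.9, 103, 101, 57.4 and 67.5 CPM in S-G2-M, against 44.7, 46.9, 62.7, 35.3 and 31.5 CPM in G0. Sdha (ENSMUSG00000021577.14; chromosome 13, 74322254 to 74350280, minus strand), the flavoprotein that binds succinate, had 226, 238, 241, 173 and 169 CPM in S-G2-M, against 106, 122, 139, 120 and 106 CPM in G0. For Sdha no S-G2-M value overlapped the G0 values, and for Sdhd the S-G2-M value of preparation 5 lay below the G0 value of WT3. The log2 changes were 0.81 ± 0.12 for Sdha (SE; adjusted p = 2.58e-06) and 0.94 ± 0.15 for Sdhd (SE; adjusted p = 1.45e-05). Sdhb, the iron-sulphur subunit, rose by 0.47 ± 0.14 (SE; adjusted p = 0.00547) and Sdhc, the other anchor, by 0.44 ± 0.14 (SE; adjusted p = 0.0125).

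In complex III, 6 of 8 members rose, with a median log2 change of 0.58. Uqcr10 (ENSMUSG00000059534.8; chromosome 11, 4701973 to 4704342, minus strand), a small subunit of the complex, had 51.7, 57.8, 59.5, 22.9 and 25.4 CPM in S-G2-M, against 22.3, 24.4, 37.2, 11.7 and 11.2 CPM in G0. Values at E13.5 were the lowest in both gates, and within each preparation the S-G2-M library was higher (log2 change 1.06 ± 0.20, SE; adjusted p = 6.51e-05). The core proteins Uqcrc1 and Uqcrc2 rose by 0.58 and 0.68 and the Rieske iron-sulphur protein Uqcrfs1 by 0.35 (adjusted p = 0.0476). Of the exon bases of Uqcrc2, 19.7% lie opposite Pdzd9.

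In complex IV, 7 of 10 members rose, with a median of 0.40. Cox8a, a small subunit, had 67.3, 88.0, 80.8, 81.8 and 82.6 CPM in S-G2-M, against 40.0, 37.8, 56.3, 46.9 and 48.2 CPM in G0, with no overlap, and a log2 change of 0.82 ± 0.14 (SE; adjusted p = 3.53e-05). In complex V, 12 of 16 members rose, with a median of 0.54. Atp5b had 1150, 1390, 1420, 797 and 802 CPM in S-G2-M, against 799, 857, 1030, 534 and 531 CPM in G0, higher in S-G2-M in each preparation (log2 change 0.58 ± 0.13, SE; adjusted p = 0.000516). Atp5a1 rose by 0.54 ± 0.13 (SE; adjusted p = 0.00122). The highest log2 change of all members was 1.16 ± 0.19 for Atp5g2 (SE; adjusted p = 1.29e-05), at only 5.78 to 8.72 CPM in S-G2-M and 2.41 to 4.56 CPM in G0.

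**Figure D2:**
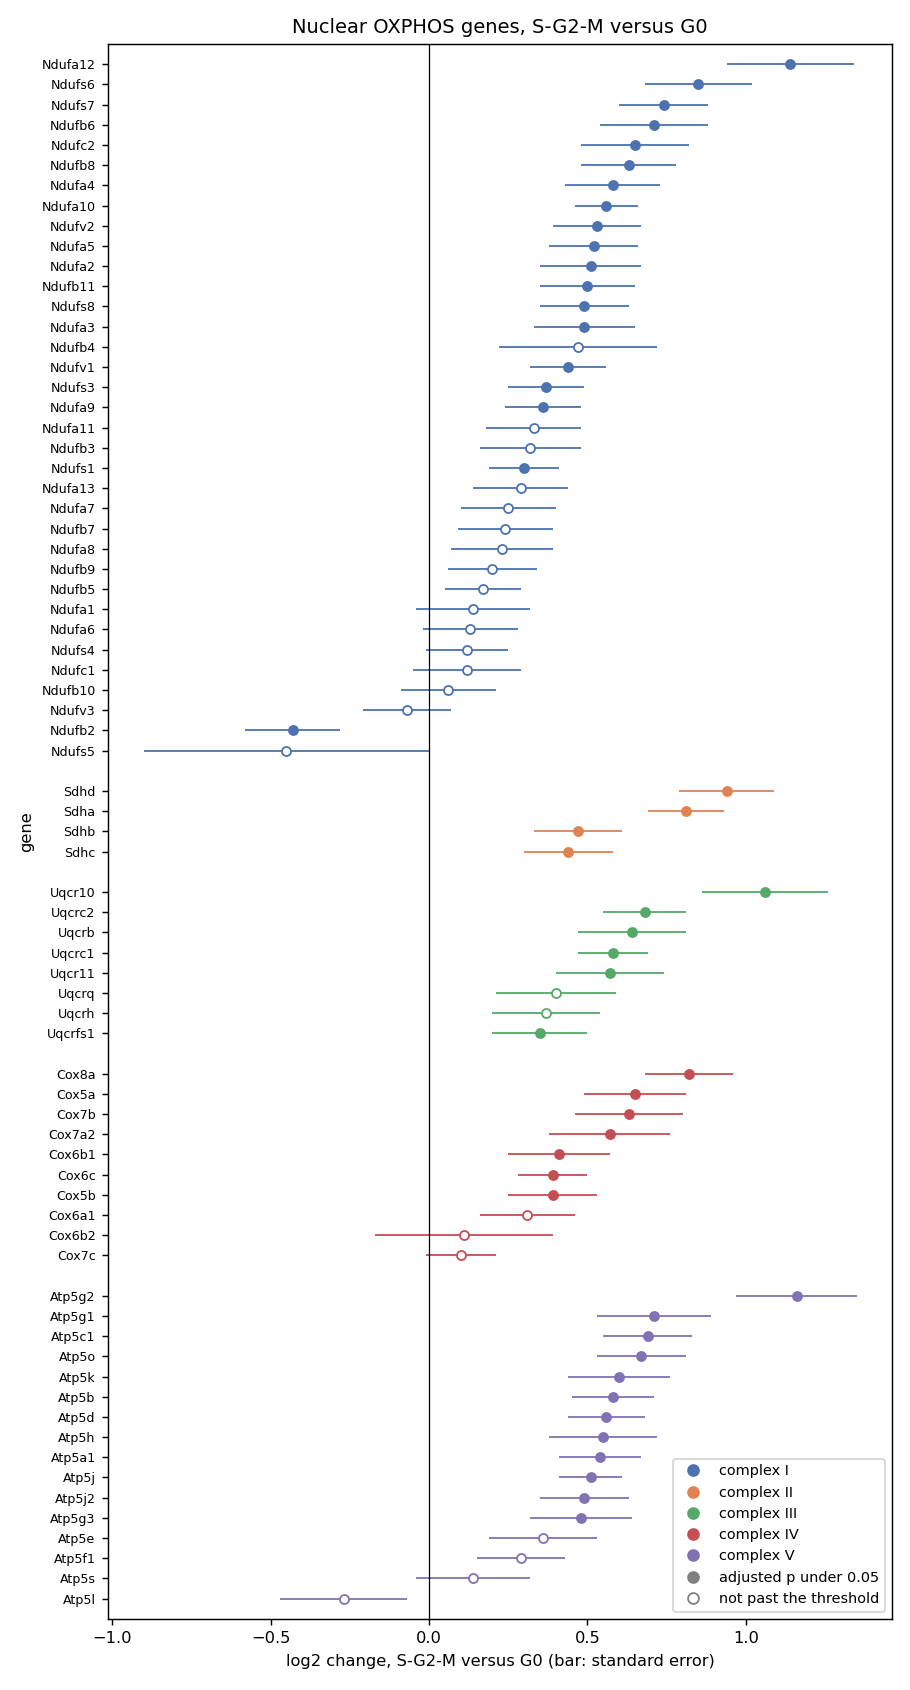
Log2 change of members in S-G2-M against G0 cells, grouped by complex, with bars of 1 SE; filled points passed an adjusted p of 0.05. The 47 members called higher lie to the right of 0 and the 1 called lower, Ndufb2, to the left.

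Promoters were compared as sequence, because many of these members moved together. RefSeq start sites (GRCm38.p6) matched 64 of the 74 members, and windows ran from 250 bases before to 50 after the start. Among the names without a match were Ndufa2, Ndufb9, Ndufs1, Sdhc, Uqcrb, Uqcrc2, Uqcrq, Cox6c and Atp5a1. The NRF1 motif, searched on both strands as GCGCA, any base and then GCGC, stood in 16 member windows (25%) and in 4.78% of 27025 windows of all genes. The GABPA motif, CCGGAAG on either strand, stood in 15 (23.4%) against 9.12%, and the YY1 motif, AAGATGGCG on either strand, in 6 (9.38%) against 1.49%. At least 1 of the motifs stood in 32 member windows (50%) and in 14% of all windows. Unlike the members, the genes of all windows were not limited to those with a mean of at least 1 CPM. The part of this in the shares was not tested. Of the 16 members with the NRF1 motif 10 rose in S-G2-M cells against G0 cells, with a median log2 change of 0.54, and of the 48 without it 30 rose and 1 fell, with a median of 0.45. Of the 32 members with a match to any of the motifs 20 rose (median 0.48), and 20 of the 32 without a match rose and 1 fell (median 0.50).

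The 150 bases before the RefSeq start are shown for 6 members whose values the results turn on, to set windows with matches beside windows without. They run 5′ to 3′ on the strand of the gene, on GRCm38.p6. Capitals mark an NRF1 or GABPA match on either strand. The stretch of Sdha held 3 NRF1 matches, that of Sdhd held 1 NRF1 and 1 GABPA match, those of Ndufs6 and Atp5k held 1 NRF1 match each, and those of Ndufa12 and Ndufb2 held none of the motifs searched. The gene bounds printed in this report are those of GENCODE, and some of their starts differ from those of RefSeq. By the GENCODE bounds the stretch of Ndufa12 lies inside the gene, and those of Sdha, Ndufs6 and Atp5k lie partly inside. Bases before the GENCODE start of Ndufa12 are thus not shown.
Sdha (chr13:74350241-74350390, minus strand): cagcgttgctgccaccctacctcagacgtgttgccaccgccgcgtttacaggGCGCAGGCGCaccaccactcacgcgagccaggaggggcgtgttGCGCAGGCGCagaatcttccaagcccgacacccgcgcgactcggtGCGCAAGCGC
Sdhd (chr9:50603850-50603999, minus strand): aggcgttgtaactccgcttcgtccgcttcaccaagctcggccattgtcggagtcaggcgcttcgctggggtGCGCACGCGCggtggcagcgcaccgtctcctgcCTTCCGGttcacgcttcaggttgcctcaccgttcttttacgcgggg
Ndufs6 (chr13:73328483-73328632, minus strand): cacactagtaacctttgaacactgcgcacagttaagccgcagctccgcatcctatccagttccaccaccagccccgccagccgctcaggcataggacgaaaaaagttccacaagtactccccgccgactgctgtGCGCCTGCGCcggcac
Atp5k (chr5:108434400-108434549, minus strand): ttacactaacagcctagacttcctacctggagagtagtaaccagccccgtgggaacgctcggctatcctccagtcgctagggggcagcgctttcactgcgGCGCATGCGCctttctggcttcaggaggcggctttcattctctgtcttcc
Ndufa12 (chr10:94198885-94199034, plus strand): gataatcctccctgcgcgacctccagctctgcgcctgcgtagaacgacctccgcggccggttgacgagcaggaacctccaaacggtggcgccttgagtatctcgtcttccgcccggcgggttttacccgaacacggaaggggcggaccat
Ndufb2 (chr6:39592415-39592564, plus strand): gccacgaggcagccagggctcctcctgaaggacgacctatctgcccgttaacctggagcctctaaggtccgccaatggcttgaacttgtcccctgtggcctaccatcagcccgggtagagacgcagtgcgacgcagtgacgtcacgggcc

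Between G0 and S-G2-M the sorted gates run through G1 and G1-S, and most of the step lay between G1 and G1-S in 4 of 5 preparations. In G1 against G0 cells 5 members rose and none fell, where 18.2% of all genes rose and 18.1% fell, and the median log2 change of the 74 members was 0.08 (0.01 over all genes). With preparation as a block 3 rose. The log2 changes were 0.72 ± 0.19 for Atp5g2 (SE; adjusted p = 0.00389), 0.64 ± 0.17 for Ndufs6 (SE; adjusted p = 0.00496), 0.50 ± 0.20 for Uqcr10 (SE; adjusted p = 0.0476), 0.36 ± 0.12 for Sdha (SE; adjusted p = 0.0166) and 0.26 ± 0.10 for Atp5j (SE; adjusted p = 0.0456). Under other settings the call was lost 9 times for Atp5j (adjusted p up to 0.309), 7 times for Uqcr10 (up to 0.333), 4 times for Sdha (up to 0.128) and 1 time for Ndufs6 (up to 0.0559). Ndufs6 had 20.0, 41.3, 27.6, 17.6 and 17.4 CPM in G1, and the WT2 library stood highest. With the G1 library of WT2 left out, 2 members rose and 2 fell, with all of WT2 left out 2 rose and 3 fell, and without preparation 8 only 2 were called. Without WT3 8 rose and none fell, and without its unsorted library alone 11 rose and none fell. With upper-quartile factors 11 rose and with library totals 15.

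In G1-S against G1 cells 14 members rose and none fell, where 11.7% of all genes rose and 7.18% fell, and the median was 0.29 (0.01 over all genes). They were 5 members of complex I, 2 of complex II, 2 of complex III, 1 of complex IV and 4 of complex V. The highest change was that of Cox5a, a matrix-facing subunit of cytochrome c oxidase, with 41.6, 28.1, 44.4, 44.1 and 49.8 CPM in G1-S, against 25.3, 31.4, 21.9, 19.6 and 22.8 CPM in G1 (log2 change 0.77 ± 0.16, SE; adjusted p = 0.00131). Only in WT2 was the G1-S value of Cox5a the lower. Sdhd rose by 0.66 ± 0.15 (SE; adjusted p = 0.00371) and Sdha by 0.39 ± 0.12 (SE; adjusted p = 0.0187), and Atp5a1, Atp5b, Atp5g3 and Atp5o rose by 0.38 to 0.46. Of the 50-base stretches of Atp5o, 41.6% also occur in other genes. Within preparations the median log2 ratio was 0.33 in WT1, -0.46 in WT2, 0.74 in WT3, 0.51 in 5 and 0.52 in 8. The G1 library of WT2 carried the highest summed level of its gate, 7120 CPM, where the G1 libraries of WT1, WT3, 5 and 8 had 4860, 5210, 3440 and 3780 CPM. Without that library 43 members rose and without all of WT2 58 rose. Without WT1 7 were called, without WT3 4, and without preparation 5 or preparation 8 only 1 under each. With WT1, WT2 and WT3 alone no member was called, and with 5 and 8 alone 61 rose and 1 fell. With library totals as the scaling 3 rose and 1 fell, and with upper-quartile factors 9 rose.

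Markers of organs that the G1-S gate could hold moved in the same step. Of the 14 heart muscle markers 13 rose, with sums of 431 to 1270 CPM in G1-S and 59.3 to 149 CPM in G1, and all 14 hepatocyte markers rose, with sums of 34.8 to 2650 CPM in G1-S and 14.4 to 37 CPM in G1. The heart form Cox6a2, under the limit for members, also rose, by 3.65 ± 0.80 log2 units (SE; adjusted p = 0.00227). It had only 0 to 0.886 CPM in G1-S and 0 to 0.0977 CPM in G1. The other heart and muscle forms did not share this: Cox7a1 had a log2 change of 0.23 without a call. Cox8b had 0 to 0.476 CPM in G1-S and 0 to 0.315 CPM in G1. The part of these markers in the 14 calls was not tested.

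In S-G2-M against G1-S cells no member passed edgeR's quasi-likelihood test, where 7.28% of all genes rose and 10.1% fell, and DESeq2 also called none. At an unadjusted p under 0.05 there was 1. The median log2 change of the 74 members was 0.05, with a range of -0.19 to 0.37. Within preparations it was 0.48 in WT2 and between -0.16 and 0.03 in the other 4.

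**Figure D3:**
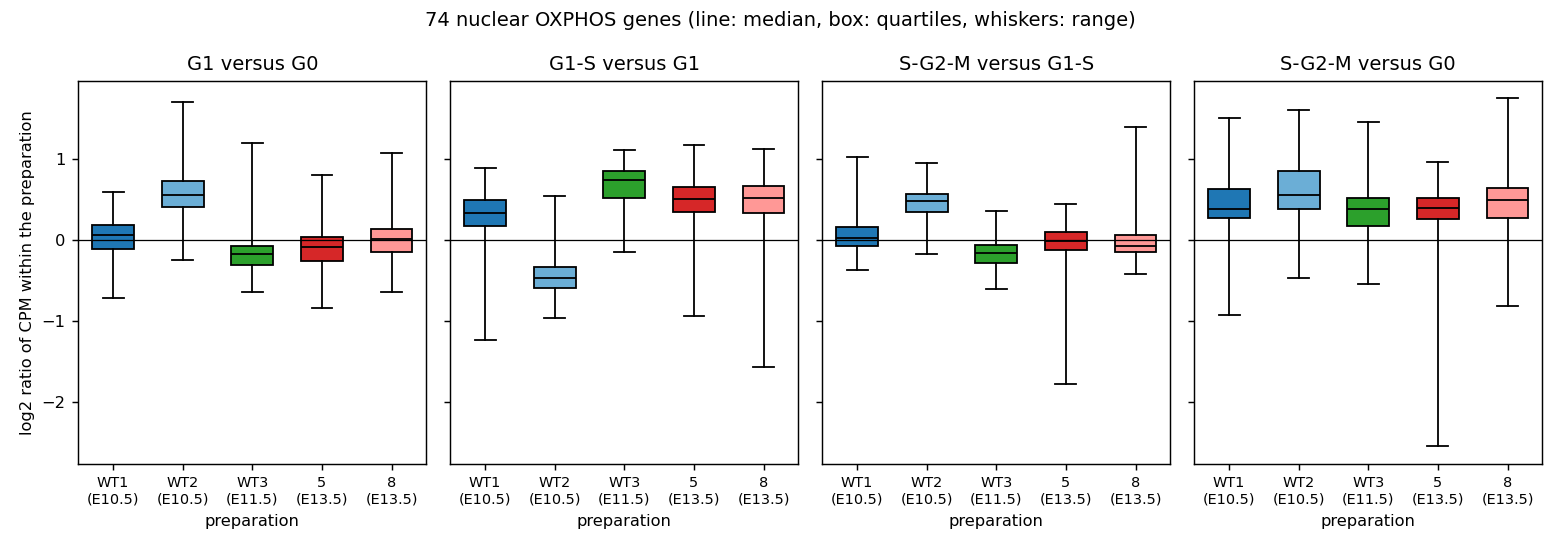
Log2 ratio of the 74 members between gates within each preparation, as boxes with the median and quartiles and whiskers over the range. The S-G2-M to G0 ratio was centred between 0.38 and 0.56 in all 5 preparations, while the median G1-S to G1 ratio was -0.46 in WT2 and 0.33 to 0.74 in the other preparations.

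The unsorted libraries held the highest summed level of every preparation. It was 7350, 8780, 14900, 7350 and 7270 CPM in WT1, WT2, WT3, 5 and 8, or 9130 ± 3290 CPM (SD, n = 5). WT3 stood far above the rest. In all 5 preparations 48 of the 74 members had their highest CPM in the unsorted library. The share of all genes with this pattern is not given here, so whether it is particular to the members is not known. Red blood cell markers summed to 17000 to 43700 CPM in the unsorted libraries and to 227 to 3340 CPM in the sorted ones, and cytosolic ribosomal protein genes were also highest there. Their part in the unsorted level was not tested.

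Among members called between E13.5 and E10.5, lower calls outnumbered higher ones in each gate and in unsorted cells. The share of members that fell lay above that of all genes in G0, G1 and S-G2-M cells, near it in G1-S cells (18.9% of members) and below it in unsorted cells (16.2% of members). In G0 cells 6 members rose and 28 fell (background 20.4% and 22.5% of all genes), with a median log2 change of -0.38. In G1 cells 1 rose and 57 fell (18.7% and 28.5%), with a median of -0.73. In G1-S cells 5 rose and 14 fell (19.8% and 19.8%, or 39.7% in either direction), with a median of -0.17. In S-G2-M cells 4 rose and 37 fell (18.9% and 24.1%), with a median of -0.46, and in unsorted cells 9 rose and 12 fell (25.2% and 28.7%), with a median of -0.16. The medians of all genes were -0.04, -0.11, -0.02, -0.07 and -0.08 in the same order. Each gate set 2 libraries against 2, with the spread pooled over the gates and the unsorted libraries. WT3, the only preparation of its day, adds nothing to that spread. Libraries of a preparation were correlated and the test treated them as independent, so its p-values can be too small.

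The counts depended on single preparations and on the scaling, while the sign of the median did not change under the settings tried. Leaving out preparation 5 or preparation 8, which leaves 1 library at E13.5 that is assumed to vary like the rest, gave 1 higher and 6 lower in G0 under both. In G1 cells it gave 24 lower without preparation 5 and 34 lower without preparation 8, none higher, and without the G1 library of WT2 it was 2 higher and 31 lower. In S-G2-M cells 1 rose and 5 fell under both. In G1-S cells 2 or 1 rose and 2 fell, and in unsorted cells 3 rose and 2 fell without preparation 5 and 1 rose and 3 fell without preparation 8. Leaving out WT1 or WT2, which leaves 1 library at E10.5, raised the counts instead: in G1-S cells 15 rose and 20 fell without WT1 and 8 rose and 32 fell without WT2, and in unsorted cells 10 rose and 36 fell and 14 rose and 25 fell. Without the G1 library of WT2, the counts in unsorted cells were 7 higher and 28 lower. Upper-quartile factors moved the median of all genes to -0.20 in G0, -0.15 in G1-S and -0.26 in unsorted cells, and the members called were then 3 higher and 43 lower in G0, 3 higher and 25 lower in G1-S, and 4 higher and 34 lower in unsorted cells. Library totals gave 3 higher and 39 lower in G0, 3 higher and 24 lower in G1-S, and 5 higher and 24 lower in unsorted cells, and RLE factors, those of DESeq2, gave 6 higher and 23 lower in unsorted cells.

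In complex I 29 of 36 members fell in G1 cells and 19 in S-G2-M cells. All 4 genes of complex II fell in G1 and in S-G2-M cells. In complex V 11 of 16 fell in G1 and 7 in S-G2-M cells. Over the 5 kinds of library, 60 members (81.1%) fell in at least 1, where 45.4% of all genes tested did, 13 (17.6%) rose in at least 1, where 37.9% did, and 3 (4.05%) were called in none, where 21.4% were. The share lower in all 5 was 10.8%, near the 11.4% of all genes. These 8 members included Ndufa2, Ndufb7, Ndufb8, Uqcr10, Cox7b, Atp5f1 and Atp5k, and 1 member, Uqcrq, was higher in all 5 (1.35%, against 7.96% of all genes).

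Atp5k (ENSMUSG00000050856.16; chromosome 5, 108433244 to 108434448, minus strand), subunit e of the ATP synthase, which holds its dimers together, had the largest decrease in each kind of library among members whose log2 CPM averaged 3 or more. In G0 it had 13.8 and 14.8 CPM in preparations 5 and 8 at E13.5, against 42.1 and 46.7 CPM in WT1 and WT2 at E10.5. In G1 it had 11.8 and 11.2 CPM, against 42.9 and 71.2 CPM, and in S-G2-M 19.4 and 21.6 CPM, against 67.0 and 72.5 CPM. The days did not overlap in any gate. The log2 change was -1.63 in G0, -2.31 in G1, -1.54 in G1-S, -1.77 in S-G2-M and -1.58 in unsorted cells (adjusted p = 5.42e-08 to 3.95e-06). At E11.5, with 1 preparation, WT3 had 48.3 CPM in G0 and 75.6 CPM in S-G2-M, near the E10.5 values.

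Uqcrq (ENSMUSG00000044894.14; chromosome 11, 53427922 to 53430831, minus strand), a small subunit of complex III that binds next to cytochrome b, went the other way. It had 18.7 and 16.4 CPM at E13.5 in G0, against 9.25 and 8.72 CPM at E10.5, and 27.2 and 29.9 CPM in G1-S, against 5.27 and 7.38 CPM. In S-G2-M it had 23.8 and 27.8 CPM at E13.5, against 10.5 and 11.7 CPM at E10.5. E13.5 values were higher in each gate without overlap, and the log2 changes were 0.97 in G0, 0.56 in G1, 2.16 in G1-S, 1.21 in S-G2-M and 1.40 in unsorted cells (adjusted p = 1.1e-07 to 0.0122). The call in G1 was lost under 2 other settings. At E11.5 it had 8.18 to 10.1 CPM in G0, G1-S and S-G2-M and 7.25 CPM in G1, close to the E10.5 values.

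Some other members fell in most kinds of library, but many neighbours of Uqcrq and Atp5k did not. In complex III, Uqcrb, Uqcrc1 and Uqcrfs1 fell in 1 of the 5 and Uqcrc2 in none. In complex V, Atp5g1, Atp5g2, Atp5l and Atp5o fell in 1. Those with the larger decreases are given next. Over the 5 kinds of library the log2 change was between -1.72 and -0.64 for Uqcr10, between -1.41 and -0.78 for Ndufb8, an accessory subunit of the membrane arm of complex I, and between -1.28 and -0.71 for Cox7b, a small subunit of complex IV. Cox7a2, the widely expressed form of another small subunit, fell in the 4 sorted gates, with log2 changes between -1.55 and -0.67. Uqcr11 fell in G0, G1 and S-G2-M, with log2 changes between -1.43 and -0.74. Under other settings Uqcr10, Ndufb8, Cox7b and Cox7a2 lost their calls in some kinds of library. A few members of complex V rose in 4 of the 5: Atp5j, coupling factor 6 of the stator stalk, by 0.47 to 0.63 outside G1, and Atp5d, the δ subunit of the rotor stalk, by 0.37 to 0.74 outside G1. Under other settings the call of Atp5j was lost 2 times each in G0, G1-S and S-G2-M and 1 time in unsorted cells. That of Atp5d was lost 3 times in S-G2-M and 1 time each in G1-S and unsorted cells. Of the exon bases of Atp5j, 12.7% lie opposite Gabpa. Ndufs8 rose in G0 (0.42; adjusted p = 0.0415) and Uqcrc2 in G0 (0.40; adjusted p = 0.0442), and each lost its call under 7 other settings.

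Whether the gate differences themselves differed between E13.5 and E10.5 was tested as an interaction. For G1-S against G1, 7 members had a higher G1-S minus G1 log2 difference at E13.5 than at E10.5 and none a lower one (3.70% and 1.60% of all genes, 5.31% in all), with a median difference of 0.58 over the 74 members and 0.11 over all genes. They were Uqcrq with a difference of 1.59 log2 units (adjusted p = 0.000918), Ndufc2 with 1.08, Ndufc1 with 1.03, Cox6a1 with 0.98, Atp5g3 with 0.97, Uqcrfs1 with 0.96 and Atp5d with 0.74. Uqcrq had 27.2 and 29.9 CPM in G1-S against 14.7 and 15.6 CPM in G1 at E13.5, and 5.27 and 7.38 CPM in G1-S against 8.82 and 11.6 CPM in G1 at E10.5. It was thus higher in G1-S than in G1 in both preparations at E13.5 and lower in both at E10.5, as were Ndufc1, Ndufc2 and Uqcrfs1. For Ndufc1, Ndufc2 and Uqcrfs1 the G1-S and G1 values of WT1 lay close together, and the larger difference at E10.5 was that of WT2. Cox6a1, Atp5g3 and Atp5d were higher in G1-S in both preparations at E13.5 and in WT1, and lower in WT2. The counts under other settings that follow have no share of all genes beside them, so they tell only how far the calls depend on the setting. With preparation as a block 17 were called, without the G1 library of WT2 2, and without preparation 5 or preparation 8 none. Without WT1 66 were called. For S-G2-M against G0 no member was called by edgeR's quasi-likelihood test or by DESeq2 (background 4.24% higher and 4.42% lower, 8.66% of all genes), and the median difference was -0.08, with 4 at an unadjusted p under 0.05. Without WT1 6 were called lower and without WT2 3 lower and 1 higher. No member was called for G1 against G0 (background 1.04% higher and 2.47% lower, 3.51% in all), with 18 at an unadjusted p under 0.05, or for S-G2-M against G1-S (1.02%), with 5. DESeq2 called 1 lower in each. With preparation as a block 3 were called lower for G1 against G0 and 1 for S-G2-M against G1-S, and without WT1 46 and 31.

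Of the mitochondrially encoded subunits, 11 were tested beside the nuclear members. In S-G2-M against G0 cells 4 of 11 rose and none fell, with a median log2 change of 0.36: mt-Nd2 by 0.72, mt-Nd1 by 0.63 and mt-Nd5 by 0.55, all of complex I, and mt-Co1, the catalytic subunit of complex IV, by 0.37. At E13.5 against E10.5, 7 rose and 2 fell in G0, 4 rose and 3 fell in G1, 7 rose and 1 fell in G1-S and 7 rose and 1 fell in S-G2-M cells, with medians of 0.96, 0.58, 1.11 and 0.99. In unsorted cells 3 rose and 3 fell, with a median of 0.32. Copies of mitochondrial sequence in the nuclear genome can take reads of these genes. mt-Cytb, the cytochrome b of complex III, rose by 1.75 to 2.53 over the 5 kinds of library and mt-Nd1 by 1.36 to 2.26, while mt-Co3 fell, with log2 changes between -2.23 and -1.14. The mitochondrial and nuclear medians thus had opposite signs between the days. The difference between the day changes of the 2 lists was not tested.

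Other lists of the same organelle and of metabolism give the setting. In S-G2-M against G0 cells 13 of 17 genes of the citric acid cycle rose and none fell (median 0.45), as did 67 of 77 mitochondrial ribosomal protein genes (0.68) and 83 of 87 cytosolic ribosomal protein genes (0.84), with none lower in either. Of 22 entries for the 21 names of the glycolysis list, where Aldoa has more than 1 entry, 15 rose and 4 fell (0.99). Among 14 regulators of mitochondrial biogenesis 10 rose and 1 fell: Nrf1 rose by 1.08, Gabpa by 0.99, the mitochondrial transcription factor Tfam by 1.0 and the coactivator Pprc1 by 1.33, while the nuclear receptor Esrra fell by 0.84. Among assembly factors 8 of 15 rose and none fell for complex I (0.37), 2 of 6 rose and 1 fell for complex III (0.00), and 7 of 19 rose and 1 fell for complex IV (0.20). Of 10 subunits or related genes that the name rule leaves out 3 rose and 1 fell. Cyc1, the cytochrome c1 of complex III, rose by 0.57, Ndufab1, the acyl carrier of complex I, by 0.45 and Cox4i2, the minor form of a complex IV subunit, by 1.36, and Ndufa4l2 fell by 2.0. Cox4i1, the major form, had a log2 change of 0.20 without a call.

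At E13.5 against E10.5 the citric acid cycle genes had medians of -0.21 in G0, -0.35 in G1, -0.04 in G1-S, -0.32 in S-G2-M and -0.05 in unsorted cells. The cytosolic ribosomal protein genes had -0.27, -0.63, -0.30, -0.50 and -0.44, with 31, 50, 21, 54 and 44 of 87 lower. Of 77 mitochondrial ribosomal protein genes 51 fell in G1 and 41 in S-G2-M cells. Of the assembly factors, Sdhaf1 of complex II and Cox11, Cox20 and Sco2 of complex IV rose in all 5 kinds of library and Uqcc2 of complex III fell in all 5, and they are named after their values were seen. Cox20 had 10.5 to 15.9 CPM in the libraries at E13.5, against 0.186 to 0.601 CPM at E10.5, and 0.182 to 0.482 CPM in WT3. Sco2 had 0.29 to 1.23 CPM at E13.5 and was listed at 0 in all 15 libraries of WT1, WT2 and WT3. Over the whole table, 44 genes had 0 counts in all 15 WT libraries and at least 10 in each of the 10 libraries of 5 and 8, and 50 genes had the opposite pattern; no member was among them. Whether the counting differed between these preparations is not given in the sources used here, and day and preparations cannot be told apart. Genes known to respond to tissue dissociation rose, 10 to 13 of 17 in each, with medians of 0.95 to 1.34, and hepatocyte markers rose in G1-S and unsorted cells, 14 of 14 in each. Their part in the day differences was not tested.

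**Figure D4:**
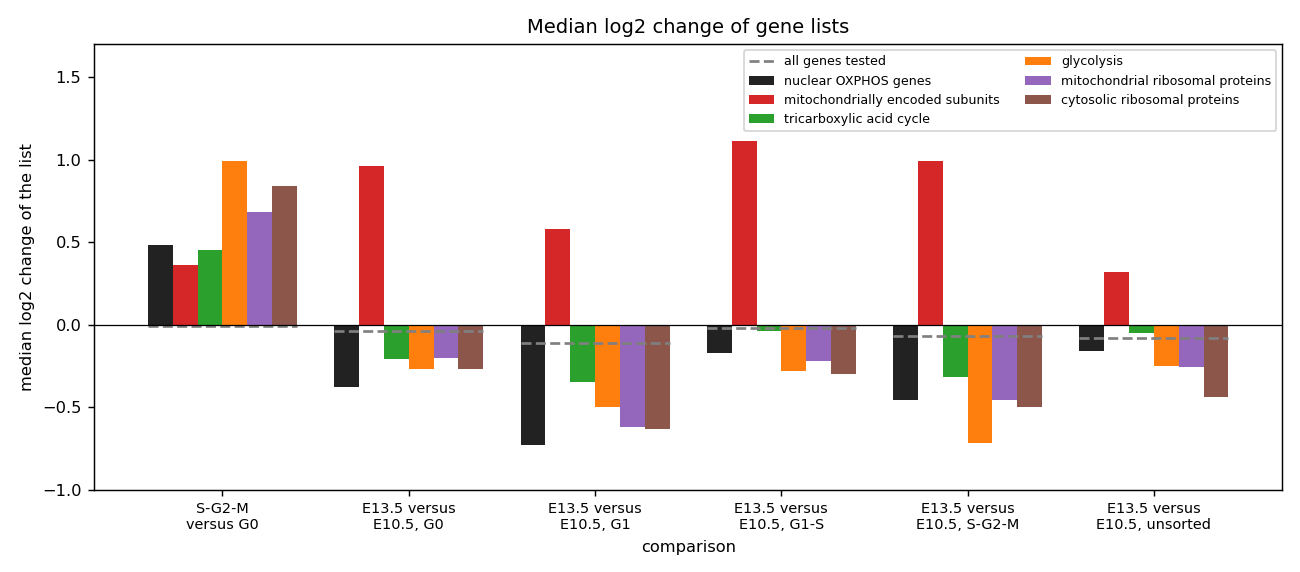
Median log2 change of 6 gene lists in S-G2-M against G0 cells and at E13.5 against E10.5 in each kind of library; the dashed line is the median of all genes tested. The nuclear genes of oxidative phosphorylation lay at 0.48 in S-G2-M against G0 cells and below 0 at E13.5 in all 5, while the mitochondrially encoded subunits lay above 0.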

How the data were processed

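RNA of sorted and unsorted embryo cells was extracted and depleted of ribosomal RNA, per the labels' protocols. The authors deposited raw counts of reads per gene, and STAR 2.5.3, HTSeq 0.8.0 and the build mm10 are named per the submitters' processing notes. Annotation, strand setting and the treatment of reads with several matches: not given in the sources used here. In all, 130 deposited samples are lanes of 25 libraries, which were summed, after a check that lanes of a library differed by little more than counting noise. Library totals ran from 14.7 to 58.5 M counts.

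Genes were tested with edgeR 4.0.16 (quasi-likelihood F test, robust, TMM factors) in R 4.3.3 after filterByExpr (minimum count 10, minimum total 15), with Benjamini-Hochberg adjustment over the 23506 genes left, all 74 members among them. Gate contrasts used gate and day as terms over 25 libraries, and day contrasts and interactions used 1 mean per gate and day. CPM use TMM library sizes, except the mean of the member rule, which uses library totals. SE is the log2 change over the square root of F. Libraries of a preparation share their cells, and their deviations from gate means correlated at 0.316 to 0.663 in the E13.5 libraries and at 0.119 to 0.743 in those of E10.5, so they are paired. Alternatives were RLE, upper-quartile and no factors, DESeq2 1.42.0, other filters, a replicate block, the WT or the numbered preparations alone, and each preparation left out. The steps were also run on simulated counts without a preparation effect, which cannot check how the pairing bears on the tests.

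Lengths, overlaps and coordinates are from GENCODE M21 (GRCm38), with 52403 of 52550 identifiers matched. Named are up to 4 highest and 4 lowest called members per comparison (mean log2 CPM of at least 3, 1 direction in all preparations or no overlap between days), members nearest the complex medians, tissue forms, complex II and the core subunits; others were chosen after their values were seen, and 1 member is not reported here by name or drawn on its own. Members and lists were chosen with earlier results of these data known.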

Additional observations from a re-analysis of the deposited data

Results flagged for a closer look

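The unsorted library of WT3 stood apart from the other 4 unsorted libraries: the gap from its summed member level to the nearest was 0.802 of the whole range, above the limit of 0.71 for 5 samples. The same held for Atp5a1 (0.737), Atp5b (0.711), Ndufs6 (0.774), Sdhb (0.792), Sdhc (0.79), Uqcr10 (0.76) and Uqcrfs1 (0.764) in that library, and for Atp5a1 in the G1-S library of WT3 (0.731). Chance flags about 1 in 20 groups, and 9 of 70 checks were flagged, 8 of them in 1 library whose values are not independent. Without that library 50 members rose and 1 fell in S-G2-M against G0 cells.

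The G1-S minus G1 log2 difference at E13.5 minus that at E10.5 was 1.03 for Ndufc1, 1.08 for Ndufc2, 0.96 for Uqcrfs1, 1.59 for Uqcrq, 0.98 for Cox6a1, 0.74 for Atp5d and 0.97 for Atp5g3, by the interaction term of edgeR's quasi-likelihood test. Ndufc1, Ndufc2, Uqcrfs1 and Uqcrq were lower in G1-S than in G1 in both preparations at E10.5, although in WT1 Ndufc1, Ndufc2 and Uqcrfs1 differed little. The G1 library of WT2, which had the highest summed member level of its gate, is 1 of the 2 libraries at E10.5 on which these differences rest.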

How the results depend on the processing

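No called value of a named member changed sign, but 2 medians did: that of G1 against G0 (0.08) was -0.07 without WT2, -0.06 without its G1 library and -0.06 in 5 and 8 alone, and that of S-G2-M against G1-S (0.05) was -0.06 without WT2 and -0.02 in 5 and 8 alone. Counts of members called, over the libraries left out, ran from 2 to 11 for G1 against G0, 1 to 58 for G1-S against G1, 37 to 53 for S-G2-M against G0 and were 0 for S-G2-M against G1-S. For E13.5 against E10.5 they ran from 7 to 49 in G0, 24 to 66 in G1, 3 to 40 in G1-S, 6 to 54 in S-G2-M and 4 to 46 in unsorted cells, and for the day differences of the gate contrasts from 0 to 46 (G1 against G0), 0 to 66 (G1-S against G1), 0 to 31 (S-G2-M against G1-S) and 0 to 6 (S-G2-M against G0). Medians ran from -0.07 to 0.15, 0.18 to 0.51, -0.06 to 0.15 and 0.42 to 0.50 for the gate contrasts in the order G1 against G0, G1-S against G1, S-G2-M against G1-S and S-G2-M against G0. Between days they ran from -0.42 to -0.32 in G0, -1.05 to -0.40 in G1, -0.25 to -0.07 in G1-S, -0.57 to -0.35 in S-G2-M and -0.29 to -0.11 in unsorted cells. For G1 against G0 the count was 11 with upper-quartile factors, 15 with library totals, 9 with no filter, 10 with a mean of at least 5 CPM, 3 with the replicate block, 3 in WT1, WT2 and WT3 and 10 in 5 and 8. For G1-S against G1 it was 9, 4, 0 and 62 with upper-quartile factors, library totals, the WT preparations and 5 and 8. It was 1 for S-G2-M against G1-S in 5 and 8 and 31 for S-G2-M against G0 in the WT preparations. In unsorted cells it was 38 between days with upper-quartile factors and 34 with at least 5 CPM. The day difference of G1-S against G1 gave 17 with no filter and 17 with the replicate block. That of G1 against G0 gave 2 with no filter, 3 with the block and 1 with DESeq2, that of S-G2-M against G1-S gave 1 with the block and 1 with DESeq2, and that of S-G2-M against G0 gave 1 with no filter. Pairing by preparation changed no other count by over 1.5 times, and a block could not be fitted between days, since each preparation is of 1 day. The median of S-G2-M against G0 was 0.34 with upper-quartile factors, 0.37 with library totals and 0.36 with at least 5 CPM. Between days it was -0.54, -0.49 and -0.48 in G0, with the same settings, and -0.32 there without Gm26917, Gm42418 and the mitochondrial genes. It was -0.30 and -0.29 in G1-S with upper-quartile factors and library totals, and -0.35 and -0.33 in unsorted cells with upper-quartile factors and at least 5 CPM. The cause of these shifts was not tested. Of single named members, 24 values lost their call under other settings and 350 kept it, and 63 lost it and 280 kept it with a library left out. The fits without the G1 library of WT2 or the unsorted library of WT3 were chosen after seeing the data. The day comparisons set 2 libraries against 2.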
